A study of Mus musculus with 28 samples.

Results

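Mediator is the large coactivator complex that carries signals from DNA-bound transcription factors to RNA polymerase II (Pol II). Its genes were chosen by name: every row called Med followed by digits, with or without a final l, plus the kinase genes Cdk8 and Cdk19 and the cyclin gene Ccnc. The rule found 33 genes among the 24984 rows of each expression table. The rule itself used no measured value, though it was set with earlier results of these data known.

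The core of the complex has a head and a middle that touch Pol II, a tail that meets activators, and Med14, the scaffold along which these parts are joined. A separate kinase module, built from Cdk8 or Cdk19, cyclin C, Med12 and Med13, binds the core reversibly and competes with Pol II for it. Med12l, Med13l and Cdk19 are paralogues of Med12, Med13 and Cdk8. In embryonic stem cells Mediator occupies enhancers and promoters of the genes that maintain pluripotency.

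The assay was Bru-seq: RNA made during a few minutes with bromouridine (BrU) in the medium carries that base, is pulled down with an antibody and is sequenced. The cells were murine CCE28 embryonic stem cells, grown with LIF and the 2i inhibitors on fibroblast feeders, which were depleted before the assay (the treatment text of the labels calls the cells CJ7). They were either wild type (WT) or null for EloA, the Elongin A gene, whose product stimulates elongation by Pol II in vitro. The paper reports only a limited effect of EloA on the elongation rate in living cells. Each genotype was sampled in 3 conditions. In steady state the cells received 2 mM BrU for 10 min with no drug. For recovery they were kept for 60 min in 1 µM flavopiridol (FP), a CDK9 inhibitor that holds Pol II near promoters, then washed and given BrU for 5 or 10 min. Each of the 6 groups had 2 libraries, 12 in all. The labels do not say that replicates came from separate cultures, while the paper's figure legends speak of 2 independent experiments. With 2 libraries per group, the p-values measure only the spread between these libraries. Whether the EloA null cells are 1 clone is not stated in the labels used here.

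The values are RPKM, read counts scaled to gene length in kilobases and to library size. The step between low values gave library sizes of 9857526 to 28547355 reads, smallest in 5-min recovery. For 31 of the 33 Mediator genes all 12 values came out as whole reads, within 0.05 reads, when the length was taken as the gene's introns. The RPKM therefore mostly describes unspliced RNA. Med10 and Med22 did not follow this rule, and their reads are unknown. RNA of Eloa itself did not fall in the libraries labelled EloA null: in steady state it was 1.18 and 1.16 RPKM in WT against 1.96 and 1.89 (log2 fold change 0.67, adjusted p = 0.0999, limma). Which part of the gene is deleted is not given in the sources used here, so this level does not check the labels. The first steady-state library titled EloA null also carries a genotype label of wild type. Libraries are therefore named by their titles throughout, and results of steady state are also given without that library. All 8 pluripotency markers were measured at 5.11 RPKM or more in every library. The 10 feeder fibroblast markers summed to between 0.767 and 2.65 RPKM in a library. Among them Col1a1 was highest, at up to 1.44 RPKM, and passed the limit for testing in both recovery conditions, Col1a2 reached 0.542, and Dcn and Lum were at 0.0308 or below. That sum was lower in both null libraries than in both WT libraries at 5 min (0.767 to 1.10 against 1.34 to 1.51) and at 10 min (1.5 to 1.91 against 2.08 to 2.65). Its part in the results was not tested, and fewer cells of a type and less RNA per cell cannot be told apart in such bulk samples.

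The Mediator genes lie on 17 chromosomes, 7 of them on chromosome 11. They span from 1.81 kb (Med11, of the head) to 313.0 kb (Med12l, of the kinase module), with a median of 18.0 kb against 23.2 kb for the 9700 expressed genes with introns. RefSeq gave promoters, 250 bases before to 50 bases after the start, for 28 of the 33 genes, 32 promoters in all (build GRCm38.p6). Those of Med12, Med13 and their paralogues and of Med22 are shown as examples of genes named in the comparison of genotypes. Capitals mark the GC box GGGCGG, the ETS core CCGGAA, the YY1 core AAGATGG and the TATA box TATAAA, each searched on both strands. Each window surrounds an annotated transcript start, which for Med12l and Med13l lies inside the gene model. Their places are chrX:101273841-101274140 (plus strand) for Med12, chr3:59006728-59007027 (plus) for Med12l, chr11:86357547-86357846 (minus) for Med13, chr5:118560469-118560768 (plus) for Med13l and chr2:26910593-26910892 (minus) for Med22.
Med12: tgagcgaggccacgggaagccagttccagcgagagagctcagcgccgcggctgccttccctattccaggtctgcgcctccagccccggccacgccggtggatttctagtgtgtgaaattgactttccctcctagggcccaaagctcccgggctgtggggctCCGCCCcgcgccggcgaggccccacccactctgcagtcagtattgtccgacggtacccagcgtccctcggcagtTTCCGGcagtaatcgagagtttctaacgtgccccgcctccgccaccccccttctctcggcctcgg
Med12l: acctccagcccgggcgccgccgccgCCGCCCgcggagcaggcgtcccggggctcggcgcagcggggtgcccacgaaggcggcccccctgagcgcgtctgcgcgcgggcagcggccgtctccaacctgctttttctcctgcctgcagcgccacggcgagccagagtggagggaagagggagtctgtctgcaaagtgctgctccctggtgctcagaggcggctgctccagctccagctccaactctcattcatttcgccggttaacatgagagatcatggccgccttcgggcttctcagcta
Med13: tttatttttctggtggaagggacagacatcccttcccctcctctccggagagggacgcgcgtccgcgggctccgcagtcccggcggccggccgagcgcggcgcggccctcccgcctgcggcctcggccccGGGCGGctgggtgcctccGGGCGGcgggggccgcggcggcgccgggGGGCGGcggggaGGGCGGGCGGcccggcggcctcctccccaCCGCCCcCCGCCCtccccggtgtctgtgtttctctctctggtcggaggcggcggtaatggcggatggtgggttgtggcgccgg
Med13l: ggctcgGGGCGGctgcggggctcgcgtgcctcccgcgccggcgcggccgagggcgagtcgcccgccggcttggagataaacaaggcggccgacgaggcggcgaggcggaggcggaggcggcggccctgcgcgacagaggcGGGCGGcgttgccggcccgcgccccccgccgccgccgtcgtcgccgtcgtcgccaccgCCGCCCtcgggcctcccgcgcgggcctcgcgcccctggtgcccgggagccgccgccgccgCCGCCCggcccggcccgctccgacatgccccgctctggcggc
Med22: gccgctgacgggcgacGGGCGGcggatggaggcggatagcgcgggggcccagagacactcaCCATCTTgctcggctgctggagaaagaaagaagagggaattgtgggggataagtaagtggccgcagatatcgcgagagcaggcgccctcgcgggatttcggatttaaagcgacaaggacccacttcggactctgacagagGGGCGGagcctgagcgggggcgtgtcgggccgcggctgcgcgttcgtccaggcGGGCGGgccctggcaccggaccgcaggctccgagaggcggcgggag

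None of these 5 windows holds the TATA box letters, while Med13, with 7 GC boxes, and Med13l, with 61 CG dinucleotides, hold the most of each among the Mediator promoters. Over all 32 Mediator promoters the GC box was found in 20 (62.5%, against 35.7% of the 32851 promoters in RefSeq) and the ETS core in 16 (50% against 14.9%). The YY1 core was found in 4 (12.5% against 6.34%) and the TATA box in 3 (9.38% against 13.6%). The median Mediator promoter held 20 CG dinucleotides against 7 for all promoters. The RefSeq promoters include those of genes not expressed in these cells, and no share over promoters of expressed genes was computed. The values therefore do not show a trait particular to Mediator genes. These matches are a description of letters and were not tested.

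All 33 genes were expressed in steady state, above 0.5 RPKM in both genotypes, at moderate levels. Their median was 2.10 RPKM in WT and 2.21 in the null libraries, beside 1.91 and 1.93 for all expressed genes. Since RPKM is per length, the genes can be ordered: Med13l was highest in WT at 5.67 ± 0.160 RPKM (SD, n = 2), at percentile 88 of the 10794 expressed genes, and Med25, a tail subunit, was lowest at 0.739 ± 0.0747, at percentile 11.6. In the null libraries Med13l was again highest, at 6.89 ± 0.236, and Med12l was lowest, at 0.657 ± 0.0183. Med25 was at 0.686 and 0.791 RPKM in the WT libraries and 0.801 and 1.11 in the null libraries. The order is coarse, since only 6 of the 32 neighbours in it had WT libraries that did not overlap.

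**Figure D1:**
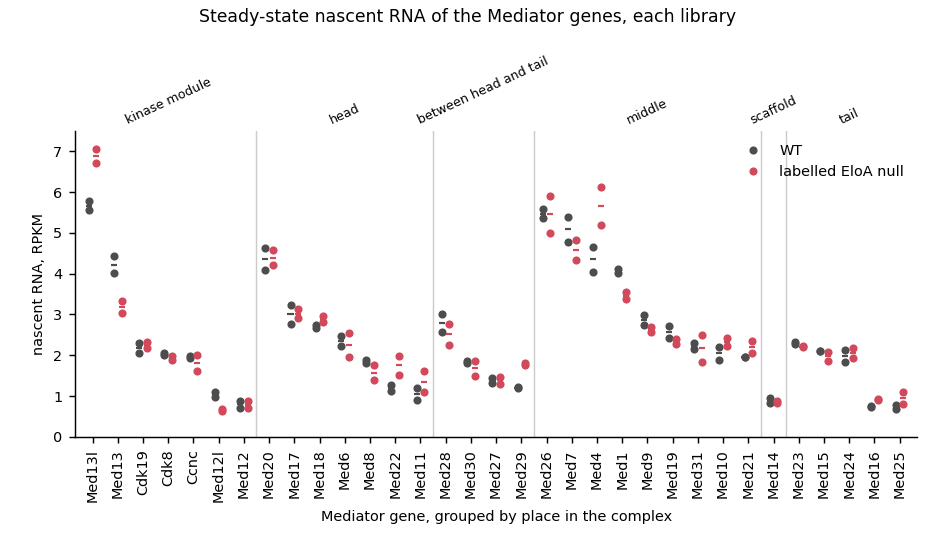
Steady-state nascent RNA in RPKM (vertical axis) of the 33 Mediator genes, grouped by their place in the complex and ordered by WT level. Points are libraries, 2 per genotype, and short bars are their means. Levels differ within every part of the complex that has several genes, from 0.739 RPKM (Med25) to 5.67 (Med13l) in WT.

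By part of the complex, levels covered wide ranges that overlapped, and differences between parts were not tested. The 9 middle genes, which include Med1, the contact of nuclear receptors, and Med26, the binding site for elongation factors, had the highest WT median (2.87 RPKM, range 1.96 to 5.48). The 7 head genes had 2.35 (1.05 to 4.36), the 7 kinase module genes 2.03 (0.799 to 5.67) and the 5 tail genes 1.99 (0.739 to 2.3). Med27, Med28, Med29 and Med30, which sit between head and tail, had 1.61 (1.2 to 2.79). Med14, the single scaffold gene, stood at 0.895 ± 0.0925 RPKM, rank 30 of the 33.

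Among the paralogues of the kinase module, the paralogue had the higher mean RPKM, a level per length, in WT steady state. Med13l had 1.44 and 1.25 times the RPKM of Med13 in the WT steady-state libraries. Med12l had 1.12 and 1.52 times that of Med12. Cdk19 had 1.03 and 1.11 times that of Cdk8, the closest of the 3 pairs.

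With the levels set out, the genotypes were compared within each condition, the question being whether loss of EloA changes nascent transcription. In steady state Med12l and Med13 were lower and Med13l, Med22, Med29 and Med4 were higher in the null libraries, without overlap between genotypes, but none of these differences passed the adjusted test. Med12l was at 0.988 and 1.09 RPKM in WT and 0.670 and 0.644 in the null libraries. Both null libraries lay below both WT libraries, a log2 fold change of -0.59 ± 0.11 (SE; adjusted p = 0.119, limma). Med13, which links the kinase to the core, was at 4.01 and 4.43 RPKM in WT and 3.33 and 3.02 in the null libraries. Again the groups did not overlap (log2 fold change -0.40 ± 0.10, adjusted p = 0.175, limma). Med13l moved the other way, from 5.78 and 5.55 RPKM to 6.72 and 7.06, also without overlap (0.28 ± 0.09, adjusted p = 0.219, limma).

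The rest of the module was closer to 0. Cdk8, one of the alternative kinases, was at 2.00 and 2.06 RPKM in WT and 1.88 and 1.99 in the null libraries, groups that only just failed to overlap. Cdk19 was at 2.05 and 2.3 against 2.19 and 2.33, Ccnc at 1.98 and 1.92 against 2.01 and 1.61, and Med12 at 0.881 and 0.717 against 0.697 and 0.875. These last 3 genes overlapped between genotypes, and their log2 fold changes were 0.05, -0.11 and -0.02.

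**Figure D2:**
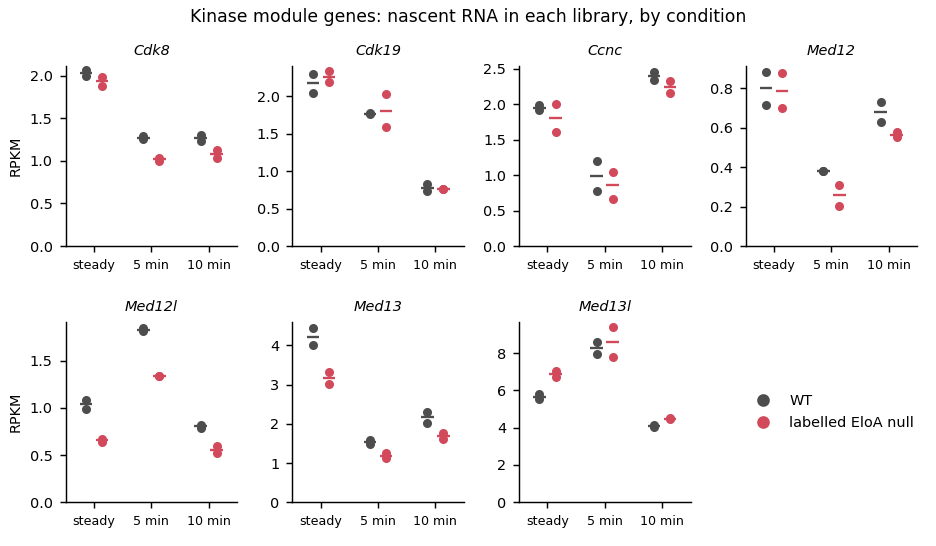
Nascent RNA in RPKM (vertical axes, each from 0) of the 7 kinase module genes in steady state and after 5 or 10 min of recovery from FP. Points are libraries and bars their means, WT in grey and libraries labelled EloA null in red. Both null libraries lie below both WT libraries in all 3 conditions for Med12l, Med13 and Cdk8.

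Outside the kinase module the smallest p-values belonged to genes with higher values in the null libraries. Med29 was at 1.19 and 1.22 RPKM in WT and 1.80 and 1.77 in the null libraries (log2 fold change 0.53 ± 0.08, adjusted p = 0.106, limma). This was the smallest adjusted p among the Mediator genes, and the groups did not overlap. Med22, a small head subunit, was at 1.26 and 1.12 against 1.98 and 1.52 (0.51 ± 0.15, adjusted p = 0.204, limma). Med4, a middle subunit and the only member on chromosome 14, was at 4.65 and 4.05 against 6.13 and 5.18 (0.37 ± 0.13, adjusted p = 0.255, limma). The 416 tested genes of that chromosome had a median log2 fold change of 0.50, against 0.02 for the genes of all other chromosomes, so Med4 lay below the middle of its own chromosome, at percentile 26.9.

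Over all 33 genes in steady state, 0 passed an adjusted p of 0.05 in limma, as did 0% of the 11345 genes tested, where the smallest adjusted p was 0.0636. At an unadjusted p under 0.05, 7 genes remained, against 18.4% of all genes tested. Of these 4 were higher in the null libraries (Med13l, Med22, Med29 and Med4, 14.1% of all genes) and 3 lower (Med1, Med12l and Med13, 4.22%). The libraries did not overlap for 9 genes higher in the null libraries (32% of all genes) and 9 lower (21.4%). The median log2 fold change was -0.02, beside 0.03 for all genes tested. By the ratio of mean RPKM, only Med12l differed by more than 1.5-fold, downwards (2.1% of all genes), and 0 genes upwards (7.21%). Leaving out a library moved the number past 1.5-fold to between 2 and 3: Med11 and Med22 joined Med12l without WT replicate 1 or null replicate 2, Med29 without WT replicate 2, and Med25 without null replicate 1. Without the null library that carries a wild type label, log2 fold changes were -0.61 for Med12l, -0.47 for Med13, 0.31 for Med13l, 0.33 for Med22, 0.52 for Med29 and 0.25 for Med4, and 0 genes were called. With trends over GC content and gene length removed, the log2 fold changes of Med13, Med22 and Med29 shrank to -0.18, 0.29 and 0.34, and with a pseudocount of 1 those of Med12l, Med22 and Med29 to -0.30, 0.32 and 0.34.

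**Figure D3:**
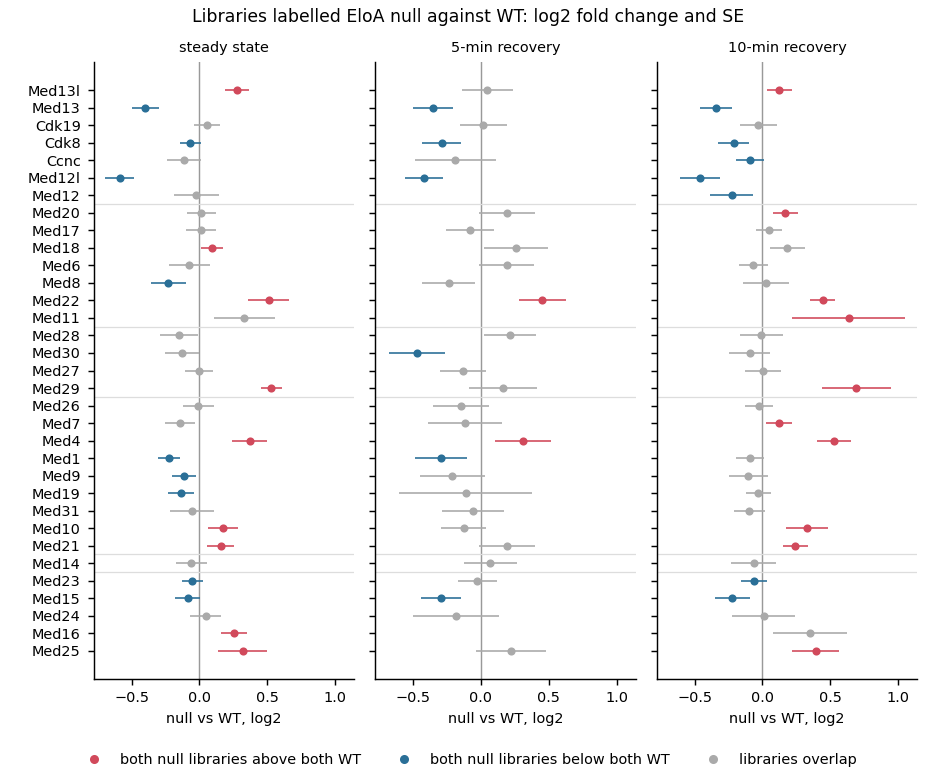
Log2 fold change of libraries labelled EloA null over WT with its SE (horizontal axes) for each Mediator gene, in the order of the plot of levels, in the 3 conditions. Red and blue mark genes whose null libraries lie both above or both below the WT libraries, and 3 genes without a point were not tested at 5 min. Med12l, Med13, Cdk8 and Med15 are blue and Med22 and Med4 red in every panel.

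After 5 min of recovery, 30 of the 33 genes could be tested, and Med11, Med12 and Med16 were below 0.5 RPKM in both genotypes. Med12l was at 1.81 and 1.85 RPKM in WT and 1.34 and 1.34 in the null libraries, groups far apart (log2 fold change -0.42 ± 0.14, adjusted p = 0.490, limma). Med13 was at 1.49 and 1.59 against 1.13 and 1.24, and Cdk8 at 1.29 and 1.25 against 1.00 and 1.04. Neither overlapped (-0.35 ± 0.15 and -0.29 ± 0.14). Med22 was higher in the null libraries, at 4.06 and 4.89 RPKM over 3.13 and 3.32 (0.45 ± 0.18, adjusted p = 0.526, limma), and Med4 was at 9.71 and 10.1 over 9.10 and 6.96 (0.31 ± 0.20). Med30, which sits between head and tail, was at 0.632 and 0.659 RPKM below 1.08 and 0.807 in WT (-0.47 ± 0.21, adjusted p = 0.561, limma). The groups were apart for each of these genes.

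In 5-min recovery 0 Mediator genes passed the adjusted test in limma, as did 0% of the 8984 genes tested, and 2 had an unadjusted p under 0.05 (9.42% of all genes), Med22 higher in the null libraries (4.54%) and Med12l lower (4.88%). The libraries did not overlap for 2 genes higher in the null libraries (15.4% of all genes) and 6 lower (25%). The median log2 fold change was -0.10, beside -0.06 for all genes tested. By the ratio of mean RPKM none passed 1.5-fold in either direction, and 5.4% of all genes did so upwards and 6.72% downwards. Without a library 1 to 2 genes did: Med11 without WT replicate 1, Med24 and Med30 without WT replicate 2, Med22 without null replicate 1 and Med19 without null replicate 2. The log2 fold change of Med4 was 0.50 without WT replicate 1 and 0.12 without WT replicate 2, and that of Med30 was -0.28 without WT replicate 1. With a pseudocount of 1 it was -0.24 for Med30, -0.17 for Cdk8, -0.27 for Med12l and -0.22 for Med13.

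After 10 min of recovery all 33 genes were tested again. Med29 was at 2.16 and 3.34 RPKM in WT and 5.03 and 3.86 in the null libraries (log2 fold change 0.69 ± 0.25, adjusted p = 0.237, limma), with a ratio of means past 1.5-fold as for 9.41% of all genes upwards. The other direction held 0 Mediator genes (3.01% of all genes). Med4 was at 14.8 and 12.1 against 19.5 and 19.2 (0.53 ± 0.13, adjusted p = 0.160, limma), close to the median of 0.51 for the 385 genes of its chromosome. Med22 was at 5.09 and 5.19 against 7.21 and 6.85 (0.44 ± 0.09, adjusted p = 0.137, limma). In all these genes the null libraries lay above WT. Med12l was at 0.790 and 0.819 against 0.525 and 0.593 (-0.46 ± 0.15, adjusted p = 0.210, limma), and Med13 at 2.03 and 2.31 against 1.61 and 1.77 (-0.34 ± 0.12, adjusted p = 0.227, limma). Both were lower in the null libraries without overlap.

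Again 0 Mediator genes passed the adjusted test in limma, as did 0% of the 10239 genes tested, and 5 had an unadjusted p under 0.05 (20.5% of all genes). Of these Med22, Med29 and Med4 were higher in the null libraries (15.2%), and Med12l and Med13 lower (5.25%). The libraries did not overlap for 10 genes higher in the null libraries (33.5% of all genes) and 7 lower (21.8%). The median log2 fold change was -0.01, beside 0.06 for all genes tested. Without a library 0 to 4 genes passed 1.5-fold: Med11 and Med4 without WT replicate 1, none without null replicate 1, and Med16, Med25, Med29 and Med12l without null replicate 2. Without WT replicate 1 the log2 fold change of Med29 was 0.39. With GC and length trends removed it was 0.42 for Med29, 0.13 for Med22 and -0.13 for Med13, and with a pseudocount of 1 it was -0.21 for Med12l. At this time 6 of the 7 kinase module genes had a log2 fold change below 0 (median -0.21). Of the 7 head genes, 6 had one above 0 (median 0.17), as did 58.5% of all genes tested. In steady state these counts were 5 of 7 below (median -0.07) and 5 of 7 above (median 0.01). Above 0 were then 56.2% of all genes tested. At 5 min 4 of 6 kinase module genes were below 0 (median -0.24) and 4 of 6 head genes above (median 0.19). Of all genes tested at 5 min, 40.6% were above 0. Other parts also held genes below 0. The middle had 6 of 9 in steady state, 7 of 9 at 5 min and 5 of 9 at 10 min. The tail had 2 of 5, 3 of 4 and 2 of 5, and the 4 genes between head and tail had 3, 2 and 2. Values below 0 were thus not particular to the kinase module, and a difference between the parts was not tested.

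The conditions share no library, and their agreement was read gene by gene. Each condition compares the same WT and EloA null cells, so any lasting difference between these cells would recur in all 3. Agreement is therefore not independent replication of an effect of EloA, and the 2 cannot be told apart here. Of the 30 genes tested in all 3 conditions, 4 lay below WT without overlap each time (Cdk8, Med12l, Med13 and Med15, against 10.1% of the 8216 genes tested in all 3) and 2 above (Med22 and Med4, against 8.79%). Med15, a tail subunit that many activators bind, was at 2.09 and 2.10 RPKM in WT against 1.86 and 2.08 in steady state, at 1.17 and 1.2 against 0.918 and 0.976 at 5 min, and at 1.48 and 1.78 against 1.36 and 1.40 at 10 min. Its groups were apart by little in steady state. No Mediator gene was apart in opposite directions in any 2 conditions.

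All 12 libraries were then fitted together, which shares the estimate of the spread over 6 groups. Replicates did not differ equally in all groups: chi-square per degree of freedom ran from 8.25 (WT steady state) to 18.2 (null, 5 min). Sharing took the SE of Med12l at 5 min from 0.14 to 0.09, so that call leans on the other conditions. In that fit Med12l was the only Mediator gene called in each condition (adjusted p = 0.0279 in steady state, 0.0351 at 5 min and 0.0361 at 10 min, limma), where 1.2%, 6.21% and 3.52% of all genes tested were called. Downwards, as for Med12l, these shares were 0.361%, 3.22% and 0.947%, and upwards, with 0 Mediator genes, 0.837%, 2.99% and 2.57%. A mean of the 3 null minus WT differences, chosen after the values had been seen, called 5 Mediator genes, as it did 18.5% of the 11973 genes tested (10.4% higher, 8.08% lower). These were Med12l (log2 fold change -0.49 ± 0.05, adjusted p = 0.000961, limma), Med13 (-0.36 ± 0.06, adjusted p = 0.00645, limma), Cdk8 (-0.19 ± 0.05, adjusted p = 0.0273, limma), Med22 (0.47 ± 0.08, adjusted p = 0.00645, limma) and Med4 (0.40 ± 0.09, adjusted p = 0.0195, limma). Med12l, Med13 and Med22 stayed called whichever of the 12 libraries was left out. Med4 was lost without steady-state WT replicate 2 (adjusted p = 0.0615, limma), steady-state null replicate 1 (0.0521) or 10-min null replicate 1 (0.0572). Cdk8 was lost without steady-state WT replicate 1 (0.0645) or 2 (0.0841), steady-state null replicate 1 (0.0753) or 2 (0.0557), 10-min WT replicate 1 (0.0645) or 10-min null replicate 2 (0.0758). With trends over GC content and gene length removed, Med22 (0.27, adjusted p = 0.0660, limma) and Cdk8 (-0.0879, adjusted p = 0.374, limma) were no longer called, and Med13 stood at -0.22. With a pseudocount of 1 Med12l stood at -0.26 and Cdk8 at -0.11. The number called ran from 3 to 7 over the libraries left out, 3 without steady-state WT replicate 2 or null replicate 1. No Mediator gene could be shown to differ between conditions in its null against WT difference: 0 of 33 passed the adjusted test (limma, 12 libraries) in each of the 3 comparisons, and 0 had an unadjusted p under 0.05 in any of them (all genes tested: 0.1%, 0.00835% and 0.0919% called).

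Within the kinase module the ratio of Med13l to Med13 was 1.44 and 1.25 in WT and 2.02 and 2.33 in the null libraries in steady state. At 5 min it was 5.77 and 5.00 against 8.33 and 6.26, and at 10 min 2.00 and 1.80 against 2.80 and 2.53. The groups did not overlap in any condition. The ratio of Med12l to Med12 was 1.12 and 1.52 in WT against 0.960 and 0.736 in steady state, and 1.09 and 1.3 against 0.950 and 1.03 at 10 min, both without overlap, but at 5 min the groups overlapped (4.75 and 4.88 against 4.33 and 6.58). The ratio of Cdk19 to Cdk8 was 1.03 and 1.11 in WT against 1.16 and 1.17 in the null libraries in steady state. At 5 min it was 1.37 and 1.42 against 2.02 and 1.53. At 10 min it was 0.564 and 0.670 against 0.676 and 0.734, groups that only just failed to overlap. For this pair too the groups did not overlap in any condition. The ratios carry no test, and no share over other pairs of genes was computed.

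Med12l and Med13 also hold genes of the opposite strand, and whether the counting used strand is not stated. Med12l (chromosome 3, 59005419 to 59318446, plus strand) encloses Gpr171, P2ry14, F630111L10Rik, P2ry13 and P2ry12, most of them genes for G-protein-coupled receptors, and Igsf10 overlaps its end. Both null libraries lay below both WT libraries in steady state for these 6 genes. Mean RPKM in steady state went from 1.56 to 0.866 for Gpr171, from 0.972 to 0.615 for P2ry14 and from 0.723 to 0.473 for P2ry12, beside 1.04 to 0.657 for Med12l. The ratio of null to WT in steady state ran over these genes from 0.541 (F630111L10Rik) to 0.654 (P2ry12). The direction was not shared throughout, since P2ry13, with few counted bases, was higher in the null libraries at 5 min. These genes were looked at after the values of Med12l and Med13 had been seen. In Med13 (chromosome 11, 86267033 to 86357596, minus strand) the opposite-strand Brip1os covers 41.3% of the span and went from 3.23 to 2.49 RPKM, without overlap. Reads of each host and of the genes it encloses cannot be told apart here. Cdk8, Med22 and Med4 overlap no other annotated gene. Med20 shares its whole span with Gm20517 on the same strand. In all, 19 of the 33 members overlap another annotated gene, so shared reads are not confined to the genes named here.

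**Figure D4:**
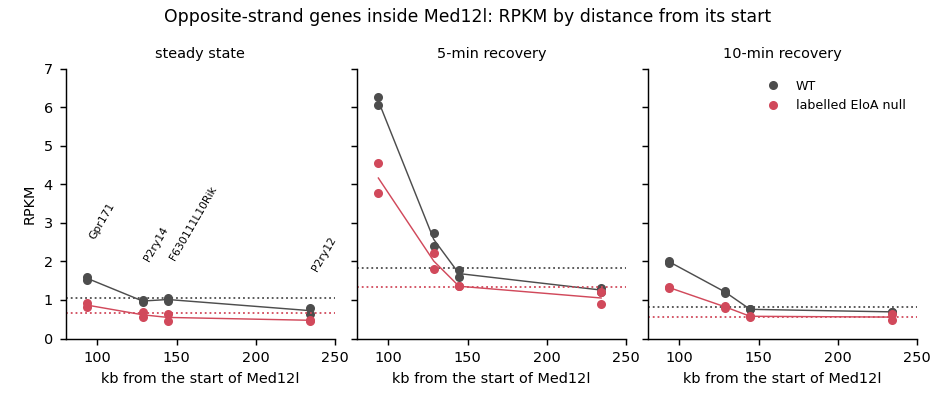
RPKM (vertical axis) of 4 opposite-strand genes enclosed by Med12l, at the distance of their middle from the start of Med12l in kb (horizontal axis), in the 3 conditions. Not every enclosed gene is drawn. P2ry13 is left out: its null libraries lay below WT in steady state but above WT at 5 min (1.80 and 1.74 against 1.31 and 0.849). Points are libraries, lines join means and dotted lines are the mean RPKM of Med12l itself. At 5 min Gpr171, the gene nearest the start, reaches 6.16 RPKM in WT and P2ry12, the farthest, 1.26.

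The second question is how transcription of these genes resumes after FP. For each gene the recovery libraries were divided by the mean steady-state RPKM of their genotype. How the 3 tables were scaled to each other is not given in the sources used here, so a ratio is relative to the other genes of its table and not an absolute rate. The Mediator genes stood above the median gene: their median ratio in WT was 1.00 at 5 min and 1.84 at 10 min, beside 0.624 and 1.05 for the 9700 expressed genes with introns. In the null libraries it was 0.811 and 1.92, beside 0.553 and 1.04. In WT, 17 of the 33 genes stood above their steady-state level at 5 min (26.9% of all genes) and 20 at 10 min (52.2%).

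At 10 min the ratios were higher in short members than in long ones. At 5 min they were not ordered by length alone: the WT median was 1.84 for the 11 members under 10 kb, 0.642 for the 10 of 10 to 30 kb, 0.551 for the 4 of 30 to 60 kb, 0.594 for the 4 of 60 to 100 kb and 1.37 for the 4 over 100 kb. All expressed genes over 100 kb likewise had a median of 1.14 at 5 min, above the 0.8 of those under 10 kb. Med31, a middle subunit of 3.87 kb, went from 2.3 and 2.16 RPKM in steady state to 7.29 and 6.92 at 5 min and 9.96 and 9.69 at 10 min in WT. Med18, a head subunit of 5.19 kb, went from 2.67 and 2.75 to 8.42 and 10.6 and then 7.26 and 8.35. Med22, of 5.38 kb, went from 1.26 and 1.12 to 3.13 and 3.32 and then 5.09 and 5.19. On the relative scale of these ratios, the 3 genes reached 2.71 to 3.5 times their steady-state level at 5 min. At 10 min they reached 2.88 to 4.41 times, with the recovery libraries clear of the steady-state ones. The null libraries gave 2.55 to 3.94 times and 3.06 to 4.26 times.

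The shortest gene did not follow. Med11, of 1.81 kb, was at 1.19 and 0.904 RPKM in WT in steady state, at 0 and 0.693 at 5 min and at 1.28 and 0.498 at 10 min. It had only 0 to 34 reads in a library. Its 5-min WT libraries lay below the steady-state ones and its 10-min libraries spanned them. For counting error alone, a count of 0 allows up to 3 reads.

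In the 4 longest genes the ratio fell from 5 to 10 min and was below 1 at 10 min. Of their counted intron bases, 3.28% (Med12l) to 7.43% (Cdk19) lie in the first 10 kb. The first 20 kb hold 6.60% to 15.2% of them. The front of resumed transcription that the paper estimates lies far from the ends of such genes at both times. Their ratios therefore describe mostly bases beyond that front and give no time of recovery. Med12l (313.0 kb) stood at 1.76 ± 0.0225 times its WT steady-state level at 5 min and 0.775 ± 0.0192 at 10 min (SD, n = 2). Med13l (205.1 kb) stood at 1.46 ± 0.0786 and 0.725 ± 0.0124. Med27 (178.0 kb) went from 1.45 and 1.33 RPKM to 1.93 and 1.63 and then 1.12 and 0.974. Cdk19 (134.5 kb) went from 2.05 and 2.3 RPKM to 1.76 and 1.77 and then 0.734 and 0.826, which is 0.359 times its steady-state level and the lowest ratio of the 33 at 10 min. In all 4 genes the 10-min libraries lay below the steady-state ones. In the null libraries the same genes stood at 2.04, 1.25, 1.17 and 0.799 times at 5 min and 0.852, 0.651, 0.758 and 0.337 times at 10 min.

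**Figure D5:**
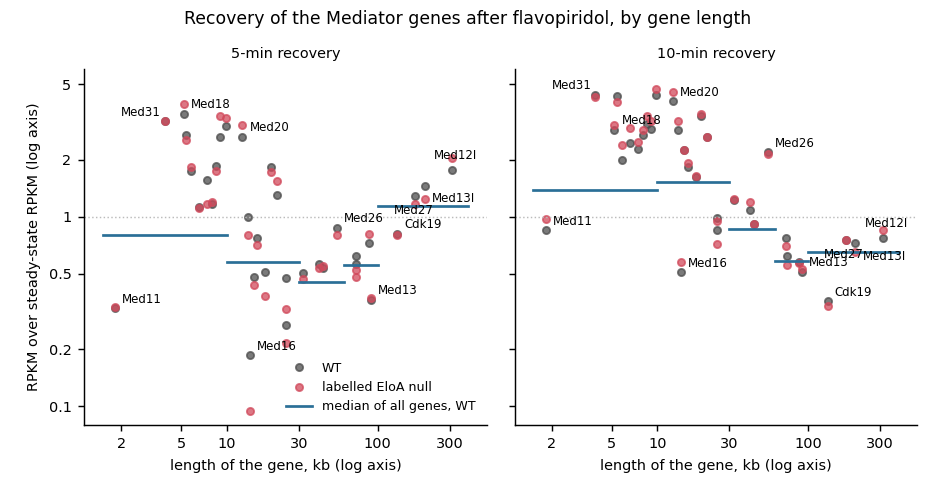
RPKM after 5 or 10 min of recovery divided by steady-state RPKM (vertical axes, log scale) against the length of each Mediator gene in kb (horizontal axes, log scale). Points are means of 2 libraries, WT in grey and labelled EloA null in red, and blue lines the WT median of all expressed genes with introns in a length range. At 10 min the ratios fall from 4.41 (Med31, WT) among short genes to 0.359 (Cdk19) among long ones.

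Spearman's rho of the ratio with gene length over the 33 genes was -0.37 in WT and -0.35 in the null libraries at 5 min, and -0.71 and -0.74 at 10 min. The genes share the libraries, so this is a description with no test. Over all expressed genes with introns rho was -0.03 and 0.04 at 5 min, and -0.43 and -0.42 at 10 min.

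The members were also set beside all genes of their own length range. Of the 11 under 10 kb, 10 stood above the median of all genes of that length at each time in each genotype. Their median ratio at 10 min in WT was 2.88, against 1.38 for the 2319 genes under 10 kb. Of the 10 members of 10 to 30 kb, 5 stood above the median of their range at 5 min and 7 at 10 min, in each genotype. All 4 of 30 to 60 kb stood above at both times. Of the 8 over 60 kb, 6 stood above at 5 min and 5 at 10 min in WT. No test was run on these counts. Med20, a head subunit of 12.7 kb, went from 4.64 and 4.09 RPKM to 11.5 and 11.6 and then 17.1 and 18.4, at percentile 98 of its length range at 10 min. Med26 (53.8 kb) was above its steady-state level only at the later time, from 5.36 and 5.60 to 4.86 and 4.74 and then 11.3 and 12.7, at percentile 95.7. Med16, a tail subunit of 14.2 kb, went the other way, from 0.765 and 0.730 to 0.193 and 0.0858 and then 0.409 and 0.353, at percentiles 7.41 and 8.52. These 3 genes were chosen after their values had been seen. Med16 rested on 11 to 21 reads per library at 5 min.

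By part, the middle genes had a WT median of 9.83 RPKM at 10 min (range 4.43 to 13.4), against 2.87 in steady state, and the head genes 6.18 (0.890 to 17.8) against 2.35. The tail genes stood at 1.63 (0.381 to 2.11) against 1.99, and the kinase module, which holds 3 of the 4 longest genes, at 1.27 (0.679 to 4.11) against 2.03. Differences between parts were not tested. The null libraries gave 9.22, 7.03, 1.83 and 1.08.

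Genes that work with Mediator were read from a list of 20, which includes cohesin and its loader (Smc1a, Smc3, Rad21, Stag1, Stag2, Nipbl, Mau2), the acetyltransferases Ep300 and Crebbp, the kinases Cdk7 and Cdk9 with Ccnh, Mnat1 and Ccnt1, the elongation factor gene Aff4, the initiation factors Tbp and Gtf2b, and the Pol II genes Polr2a and Polr2b. None passed the adjusted test between genotypes in limma in any condition. At an unadjusted p under 0.05, 0 of 20 remained in steady state (18.4% of all genes tested), 1 of 20 at 5 min (9.42%) and 2 of 19 at 10 min (20.5%). Crebbp was at 2.74 and 2.94 RPKM in WT and 2.08 and 1.91 in the null libraries at 5 min (adjusted p = 0.477, limma), and at 1.36 and 1.56 against 1.08 and 1.13 at 10 min (adjusted p = 0.213, limma), lower without overlap. Cdk9, the kinase that FP inhibits, was at 10.9 and 11.5 against 16.1 and 13 at 10 min (adjusted p = 0.241, limma), higher without overlap. Their median log2 fold changes were -0.07, -0.08 and -0.10 in the 3 conditions.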

How the data were processed

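Bru-seq libraries of 2 replicates in each of 6 groups were grouped by their titles, and 16 samples of other assays were not analysed here. Per the paper's methods and the submitters' processing notes, the authors aligned reads to mm10 (and dm3 for a spike-in) with Bowtie2 2.3.4.3, counted them with featureCounts 1.6.1, normalized them with edgeR and deposited RPKM in 1 table per condition. They also split reads by strand; whether the counting used that split, and the RefSeq release, are not given in the sources used here. The 6 mean columns in the deposited tables were not used.

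The methods speak of whole genes. The steps between low RPKM values gave whole reads for 96.9% to 97.3% of the genes examined with the summed length of introns. With lengths 37 bases longer they did so for at most 10.9%, and whole-gene or exon lengths were not tried. The way library sizes were found was tested on simulated tables. Replicates differed by more than sampling noise in every group (chi-square per degree of freedom 8.25 to 18.2), so no counting intervals were computed beyond the limit of a count of 0. Gene models and promoters are from RefSeq on GRCm38.p6, the assembly of mm10.

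Genes with mean RPKM above 0.5 in either genotype were tested on log2(RPKM + 0.1) with limma 3.58.1 (R 4.3.3, intensity trend) within a table, with Benjamini-Hochberg adjustment over all genes tested. Log2 fold changes are on that scale and understate low genes, while counts past 1.5-fold use the ratio of mean RPKM without a pseudocount. Differences between conditions and the mean of conditions came from a fit of all 12 libraries. Correlations were computed with scipy. Alternatives were pseudocounts of 0.01 and 1, a replicate block, centring, quantile normalization, removal of GC and length trends, robust variance, no filter and leaving out each library.

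Named with every library were the kinase module, in each comparison the 5 members with the smallest p, the 4 shortest and the 4 longest genes, Med4 as the member on chromosome 14, and the highest and lowest in level. The members and lists were chosen with earlier results of these data known. Values of some genes that are not members are not reported here.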

Additional observations from a re-analysis of the deposited data

How the results depend on the processing

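With 2 libraries per group, only differences well above the spread between them could pass the adjusted test, and genes such as Med11 rest on few reads. Replicate numbers were not shown to pair the libraries: deviations of libraries with the same number correlated at 0.115 in steady state, 0.146 at 5 min and 0.0971 at 10 min, over 2 pairs each. With a replicate block 0 Mediator genes were called in each condition, as without it, the genes called over the whole table went from 0 to 128 at 5 min, and the mean of the 3 conditions still called 5 Mediator genes. The block left 2 genes, against 12 and 11 without it, called in the comparisons of 5 min with steady state and with 10 min.

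The fit of 12 libraries called 1 Mediator gene in each condition and 136, 558 and 360 genes in all, against 0. Robust variance called 81, 29 and 26 genes in all, and removal of GC and length trends 18 at 5 min and 14 at 10 min. At 10 min pseudocount 1 called 5 genes, median centring 12 and quantile normalization 6. None of the genes called under these last 5 settings were Mediator genes. Without a library between 0 and 90 genes were called at 5 min, between 0 and 81 at 10 min and 0 in steady state. Without the filter 5696, 6774 and 6661 genes passed 1.5-fold, against 1056, 1089 and 1272, and 1 Mediator gene, Med16, did so at 5 min. Without a library the genes past 1.5-fold ran from 1140 to 1360, from 1276 to 1685 and from 1167 to 1785, and the Mediator genes from 2 to 3, from 1 to 2 and from 0 to 4. For differences between conditions, the counts of 12, 1 and 11 genes became 3, 4 and 2 with pseudocount 1 and 97, 54 and 34 without the filter, with 0 Mediator genes throughout.

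The median log2 fold change of the Mediator genes moved to -0.0820 in steady state and -0.106 at 10 min with median centring, to -0.105 and -0.103 with quantile normalization and to 0.0545 at 10 min with GC and length trends removed. Without a library it ran from -0.0628 to 0.0102 in steady state, from -0.152 to 0.0138 at 5 min and from -0.0262 to 0.0825 at 10 min. Small steady-state differences reversed: Cdk19 to -0.00618 with median centring, and Ccnc to 0.0602 and Cdk8 to 0.0295 with GC and length trends removed. Without a library Cdk19 ran from -0.0273 to 0.135 (below 0 without WT replicate 1), Ccnc from -0.263 to 0.0392 (above 0 without null replicate 2) and Med12 from -0.167 to 0.123 (above 0 without WT replicate 1, at 0.110, or null replicate 1). The cause was not tested.

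Removal of GC and length trends left 3 Mediator genes called in the mean of the 3 conditions (Med12l, Med13 and Med4). Without a library between 3 and 7 were called, of 1274 to 2307 genes in all against 2215. Med12l and Med13 were called in all 17 alternatives run for that mean, with adjusted p (limma) from 0.000677 to 0.00842 and from 0.00607 to 0.0445.

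With the share of counted bases in the first 10 kb (5 min) or 20 kb (10 min) of the gene in place of its length, a measure chosen after seeing the data that runs opposite to length, rho became 0.40 and 0.38 at 5 min and 0.73 and 0.76 at 10 min, in WT and null libraries. With the summed length of introns it was -0.71 at 10 min in the null libraries. Without a library rho ran from -0.403 to -0.360 in WT and from -0.401 to -0.317 in the null libraries at 5 min, and from -0.737 to -0.623 and from -0.746 to -0.701 at 10 min. The median steady-state level ran from 2.10 to 2.13 RPKM in WT and from 2.08 to 2.21 in the null libraries.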
